A study of Mus musculus with 15 samples.

Results

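Crypt stem cell and Wnt target genes were described in the ileum of mice given grape proanthocyanidins (PAC), the chains of flavan-3-ol units found in grapes and other fruit. The set held 10 genes, listed by symbol, of 17752 genes listed in at least 1 mouse: Lgr5, Olfm4, Ascl2, Smoc2, Lgr4, Rspo3, Rnf43, Znrf3, Axin2 and Sox9. Intestinal stem cells sit at the base of the crypts between Paneth cells and divide throughout life to renew the villus epithelium. They are kept by Wnt ligands, which bind Frizzled and Lrp receptors and stabilise beta-catenin, and by R-spondins, which bind Lgr receptors and thereby spare the Frizzled receptors from removal by the membrane ubiquitin ligases Rnf43 and Znrf3. Beta-catenin with Tcf factors then switches on target genes, among them Axin2, Lgr5, Ascl2, Sox9 and Rnf43 itself, several of which feed back on the pathway.

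The study comprised 15 female mice, labelled C57BL/6 (C57BL/6JOlaHsd in the study's methods) and 8 weeks old per the labels, and all kept on a purified control diet, with 1 RNA-seq library of ileal tissue per mouse and 5 mice per group. The water group was gavaged with water alone. The low mDP PAC and medium mDP PAC groups received grape PAC at 200 mg/kg every 2nd day over the same short course, as Sephadex fractions whose chains had a lower or a higher mean degree of polymerization (mDP). The labels call the latter fraction high molecular weight PAC. The same dose and times allow the fractions to be compared directly, but each fraction is a mixture of chain lengths, and each group is 1 short treatment of 1 sex and strain. Replicates were separate mice, so the p-values measure the spread between mice.

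Each library held between 15963086 and 17903886 estimated counts. Levels are given as FPKM, the fragments per kilobase of transcript scaled to the library's fragment total, and may be compared between genes. Fold changes and adjusted p-values come from edgeR's quasi-likelihood test over 14386 genes tested in 1 fit of all 15 mice, with Benjamini-Hochberg adjustment and a threshold of 0.05. All 10 genes passed the filter on low counts and had counts in every mouse, from a lowest value of 45 for Ascl2 to a highest of 17223 for Olfm4. The ileal bile acid-binding protein gene Fabp6 averaged 5679 FPKM in water mice, and all 7 distal ileum markers and all 6 small intestinal epithelium markers were tested, whereas of 6 stomach and colon markers 2 were listed and none passed the filter. The pieces differed in what they held. Summed smooth muscle markers were 965 CPM (counts scaled to a common library total) in water mouse 1 and 830 in water mouse 3 against 1606 to 3232 in the other mice, summed Paneth cell markers were 13324 CPM in water mouse 3 against 21542 to 32170 in the others, and summed B cell markers ran from 11 to 476 CPM. The FPKM values of medium mDP mouse 3 summed to 677075, against at most 573980 in the other mice. In bulk tissue, fewer crypt cells and less RNA per crypt cell cannot be told apart.

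To show the promoter context of a classical Wnt target beside a stem cell marker, the 250 bases before an annotated start of Axin2 and of Olfm4 are printed from RefSeq (build GRCm38.p6, the assembly of mm10), with CG dinucleotides in capitals. The Axin2 sequence lies at chr11:108920099-108920348 on the plus strand and the Olfm4 sequence at chr14:80000052-80000301 on the plus strand.
Axin2: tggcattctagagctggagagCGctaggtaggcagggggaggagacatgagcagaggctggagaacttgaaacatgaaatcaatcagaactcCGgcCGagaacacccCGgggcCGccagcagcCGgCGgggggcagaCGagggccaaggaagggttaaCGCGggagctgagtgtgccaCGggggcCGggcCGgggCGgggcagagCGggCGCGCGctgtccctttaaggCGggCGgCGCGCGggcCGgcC
Olfm4: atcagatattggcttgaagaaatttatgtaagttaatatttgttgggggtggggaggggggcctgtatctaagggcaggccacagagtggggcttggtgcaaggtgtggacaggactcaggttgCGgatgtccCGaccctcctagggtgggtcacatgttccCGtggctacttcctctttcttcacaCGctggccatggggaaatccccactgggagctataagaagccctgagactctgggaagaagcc
The Axin2 stretch holds 24 CG dinucleotides and the Olfm4 stretch 4. The capital C that ends the Axin2 stretch begins a CG that runs past the stretch, and is not counted. The Olfm4 stretch carries the letters TATAA on the plus strand 32 bases before the start, and the Axin2 stretch does not. Over windows of 300 bases, 250 before and 50 after a start, 24.9% of 32851 RefSeq windows hold TATAA on either strand. Windows were at hand for 5 of the 10 genes, namely Lgr4, Ascl2, Rnf43 with 2 starts, Axin2 and Olfm4, and 0 of these 6 windows hold the Tcf-type letters CTTTGAT or CTTTGAA on either strand, which 8.65% of all windows do. This says only that those letters are not in these windows. The genes lie on chromosomes 2 (Lgr4), 7 (Ascl2), 10 (Lgr5 and Rspo3), 11 (Rnf43, Znrf3, Axin2 and Sox9), 14 (Olfm4) and 17 (Smoc2).

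None of the 10 genes passed the test in any comparison. In low mDP PAC against water, 0 of 10 had an adjusted p under 0.05, beside 0 of all genes tested (0%), and adjusted p-values of the 10 ran from 0.976 to 1.00. In medium mDP PAC against water, 0 of 10 passed, beside 2 of all genes (0.0139%), both lower. In medium against low mDP PAC, 0 of 10 passed, beside 0 of all genes (0%), with adjusted p-values of the 10 from 0.896 to 0.987. At an unadjusted p under 0.05, the counts were 0 of 10 for low mDP PAC against water, beside 3.61% of all genes, 2 of 10 for medium mDP PAC against water, beside 14.8%, and 0 of 10 for medium against low mDP PAC, beside 3.89%. Both genes counted for medium mDP PAC, Rspo3 and Smoc2, were higher, as were 4.37% of all genes. The point estimates of 8 of 10 genes lay above zero for either PAC fraction against water, all but Lgr4 with Olfm4 for low and with Rnf43 for medium mDP PAC, beside 45.5% (low) and 50.5% (medium) of all genes tested. The medians of the 10 were 0.17 for low and 0.14 for medium mDP PAC on the log2 scale, beside -0.01 and 0.00 over all genes tested. With the summed B cell and smooth muscle markers as covariates the low mDP median was 0.10. Without medium mDP mouse 4 the medium mDP median was 0.08, with 6 of 10 estimates above zero. These comparisons share the water mice.

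**Figure D1:**
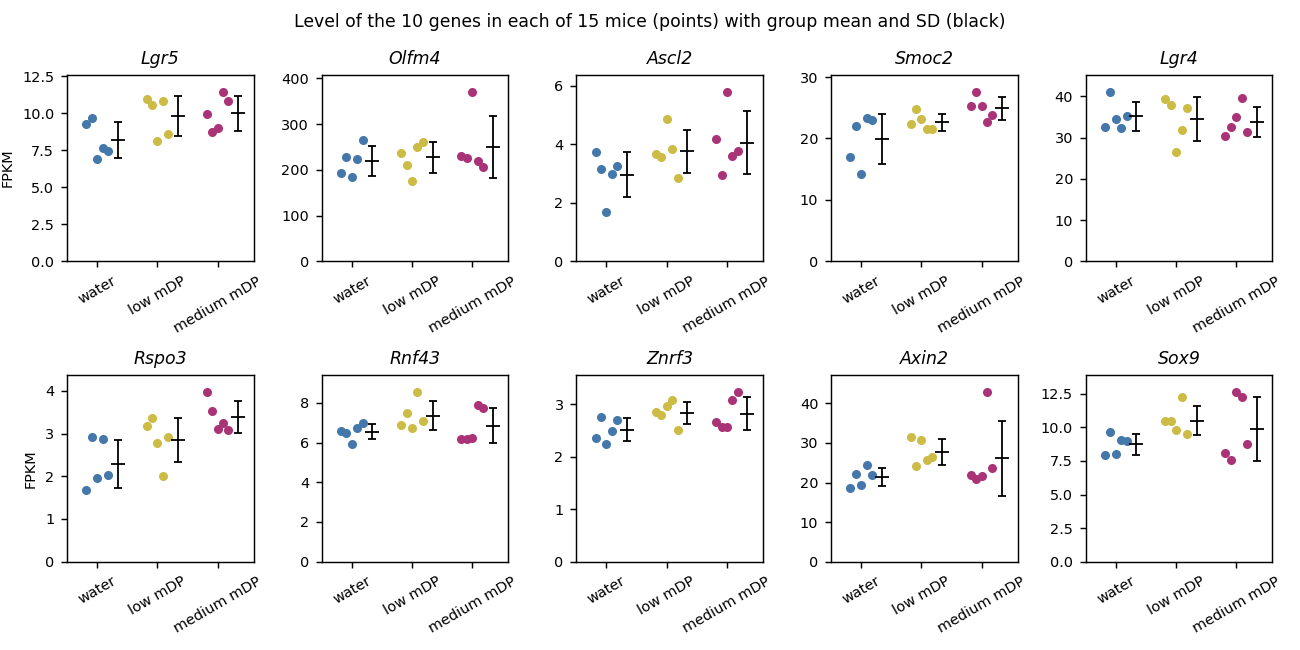
FPKM (y axis, from 0) of each of the 10 genes in every mouse of the water, low mDP PAC and medium mDP PAC groups (x axis), with 1 point per mouse and the group mean ± SD in black, n = 5. Only for Rspo3 in medium mDP PAC against water do the points of a PAC group all lie above those of the water group, and single mice stand high in Olfm4 (371) and Axin2 (42.9).

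Lgr5, the R-spondin receptor that marks crypt base stem cells, was measured at 9.28, 9.69, 6.90, 7.63 and 7.44 FPKM in water mice 1 to 5, at 11, 10.6, 8.16, 10.8 and 8.63 in low mDP mice and at 9.94, 8.73, 9.02, 11.5 and 10.8 in medium mDP mice. In each PAC group 3 of 5 mice lay above the highest water mouse, and the groups overlapped. The means were 8.19 ± 1.22, 9.83 ± 1.33 and 9.996 ± 1.16 FPKM (SD, n = 5 each). The log2 fold change was 0.21 ± 0.12 (SE, adjusted p = 0.976, edgeR) for low and 0.19 ± 0.12 (adjusted p = 0.445, edgeR) for medium mDP PAC against water, and the latter was 0.13 without medium mDP mouse 4. An exact two-sided permutation test of mean log2(FPKM + 0.1), which cannot go below 0.0079 with 5 mice against 5, gave p = 0.0952 and p = 0.0635.

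Olfm4, a secreted glycoprotein of crypt base cells, was the most abundant of the set. Its FPKM was 193, 227, 185, 224 and 266 in water mice, 237, 210, 176, 250.9 and 262 in low mDP mice, and 230, 226, 371, 218 and 206 in medium mDP mice. Medium mDP mouse 3 stood apart, while the remaining medium mDP mice lay inside the range of the water mice. The log2 fold change was -0.00 ± 0.15 (SE) for low and 0.10 ± 0.15 for medium mDP PAC against water, and the second fell to -0.05 without medium mDP mouse 3. That mouse also had the lowest summed enterocyte markers of all mice, 15741 CPM against 28904 to 44086, and the highest summed proliferation markers, 1383 CPM against 896 to 1381. Over the 15 mice, with group means subtracted, Olfm4 gave r = 0.68 with the proliferation list (permutation p = 0.0135, adjusted p = 0.201). With the enterocyte list r was -0.81 (permutation p = 0.0201, adjusted p = 0.201). These were 0.52 and -0.50 without the 2 mice most distant from the middle value of the list. The part of these differences in the Olfm4 level of medium mDP mouse 3 was not tested beyond these correlations.

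Ascl2, a transcription factor that sets the stem cell programme downstream of Wnt, was low, at 3.72, 3.17, 1.68, 2.99 and 3.25 FPKM in water mice, 3.68, 3.55, 4.87, 3.84 and 2.83 in low mDP mice and 4.19, 2.94, 5.80, 3.59 and 3.77 in medium mDP mice. Water mouse 3 was lowest and medium mDP mouse 3 highest of all 15, and it was the most variable of the set within groups, with an SD of 0.36 on the log2 CPM scale against a median of 0.20 over all genes tested. Its log2 fold changes were 0.29 ± 0.21 (SE) for low and 0.35 ± 0.21 for medium mDP PAC against water. With water mouse 3 and medium mDP mouse 3 both left out, they were 0.16 and 0.08.

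Smoc2, a secreted matrix protein of stem cells that stromal cells also make, was measured at 17.0, 22.0, 14.2, 23.3 and 22.9 FPKM in water mice, 22.4, 24.8, 23.1, 21.6 and 21.5 in low mDP mice and 25.3, 27.6, 25.2, 22.6 and 23.8 in medium mDP mice. Of the medium mDP mice, 4 of 5 lay above every water mouse, and the lowest values were those of water mice 1 and 3, in which the smooth muscle markers were low. The mean was 19.9 ± 4.06 FPKM in water and 24.9 ± 1.88 in medium mDP mice (SD, n = 5), a log2 fold change of 0.23 ± 0.11 (SE) with an unadjusted p of 0.0491 and an adjusted p of 0.336 (edgeR). It was 0.14 without water mouse 3 and 0.10 when the summed B cell and smooth muscle markers were added as covariates. The exact permutation p was 0.0238 on FPKM and 0.111 on log2 CPM with TMM normalization.

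Lgr4, an R-spondin receptor found more widely in the crypt than Lgr5, was measured at 32.5, 41.2, 34.6, 32.5 and 35.2 FPKM in water mice, 39.4, 38.0, 26.5, 31.8 and 37.1 in low mDP mice and 30.5, 32.5, 34.9, 39.5 and 31.3 in medium mDP mice. The groups overlapped almost wholly. Its log2 fold changes against water were -0.08 ± 0.11 (SE) for low and -0.15 ± 0.11 for medium mDP PAC, the lowest of the 10 estimates in both comparisons. Without low mDP mouse 3 the first was 0.00, and without water mouse 2 the second was -0.10.

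Rspo3, the R-spondin ligand that stromal and lymphatic endothelial cells around the crypt supply, had the largest estimate of the set for medium mDP PAC against water. Its level was 1.69, 2.92, 1.96, 2.88 and 2.03 FPKM in water mice, 3.17, 3.36, 2.77, 2.01 and 2.91 in low mDP mice and 3.98, 3.54, 3.11, 3.24 and 3.08 in medium mDP mice. In FPKM every medium mDP mouse lay above every water mouse, which was so for 1 of the 10 genes, beside 4.64% of all genes tested whose groups did not overlap in either direction. For low mDP PAC against water this held for 0 of 10, beside 0.605%, and for medium against low mDP PAC for 0 of 10, beside 0.737%. On log2 CPM with TMM normalization the Rspo3 groups overlapped, since medium mDP mice 3 (2.79) and 5 (2.80) lay below water mouse 4 (2.81).

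The Rspo3 mean was 2.30 ± 0.57 FPKM in water and 3.39 ± 0.38 in medium mDP mice (SD, n = 5). The log2 fold change of 0.47 ± 0.17 (SE), a fold of 1.38 with a 95% interval of 1.08 to 1.77, had an unadjusted p of 0.0134 and an adjusted p of 0.26 (edgeR), and did not pass. The exact permutation p was 0.0079, the smallest it can be, on FPKM and 0.0476 on log2 CPM. Smooth muscle markers lay on the same side, and 8 of 8 had a higher estimate in medium mDP mice, with a median of 0.42 and summed levels from 830 to 2829 CPM in water and from 1786 to 3232 in medium mDP mice. So did the 6 mesothelium markers, 6 of 6, with a median of 0.82. Their summed levels ran from 15 to 57 CPM in water and from 25 to 74 in medium mDP mice. Rspo3 was also correlated with both lists over the 15 mice, with group means subtracted. The r was 0.67 for smooth muscle (permutation p = 0.0504) and 0.63 for mesothelium (permutation p = 0.0349), both with an adjusted p of 0.232. The part of either list in the Rspo3 level was not tested beyond these correlations and the covariate fit below. With the B cell and smooth muscle sums as covariates the Rspo3 log2 fold change was 0.30 (adjusted p = 0.319). The log2 fold change of Rspo3 for low mDP PAC against water was 0.26 ± 0.17, with 2 of 5 low mDP mice above every water mouse, and it was 0.11 with the covariates.

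Rnf43 and Znrf3, the paired ubiquitin ligases that clear Frizzled receptors and are themselves Wnt targets, varied least. Rnf43 was measured at 6.60, 6.50, 5.95, 6.73 and 7.01 FPKM in water mice, 6.88, 7.47, 6.75, 8.56 and 7.10 in low mDP mice and 6.19, 6.17, 6.25, 7.91 and 7.72 in medium mDP mice. Znrf3 was measured at 2.36, 2.76, 2.25, 2.50 and 2.71 FPKM in water mice, 2.85, 2.79, 2.96, 3.08 and 2.51 in low mDP mice and 2.66, 2.56, 2.57, 3.09 and 3.24 in medium mDP mice. In the medium mDP group mice 4 and 5 were the 2 highest in both genes. The log2 fold changes for low mDP PAC against water were 0.11 ± 0.09 (SE) for Rnf43 and 0.12 ± 0.09 for Znrf3, and those for medium mDP PAC were -0.03 ± 0.09 and 0.07 ± 0.09. Without low mDP mouse 4 the Rnf43 estimate for low mDP PAC was 0.05, and without medium mDP mouse 5 the Znrf3 estimate for medium mDP PAC was 0.02. The Rnf43 estimate for medium mDP PAC was 0.04 without medium mDP mouse 3, -0.10 without medium mDP mouse 4 and 0.05 in limma on log2(FPKM + 0.1).

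Axin2, the beta-catenin destruction complex scaffold whose mRNA is a common readout of Wnt signalling, was measured at 18.7, 22.2, 19.4, 24.4 and 21.8 FPKM in water mice, 31.6, 24.3, 30.8, 25.6 and 26.4 in low mDP mice and 21.8, 20.9, 21.6, 42.9 and 23.6 in medium mDP mice. In the low mDP group 4 of 5 mice lay above every water mouse. In the medium mDP group mouse 4 was the highest of all 15, and the remaining medium mDP mice lay within the water range. The means were 21.3 ± 2.29, 27.7 ± 3.26 and 26.1 ± 9.43 FPKM (SD, n = 5 each).

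The log2 fold change of Axin2 for low mDP PAC against water, 0.33 ± 0.17 (SE), had an unadjusted p of 0.079 and an adjusted p of 0.976 in edgeR. Without medium mDP mouse 4 the estimate was 0.33 with an unadjusted p of 0.00126 and an adjusted p of 0.979. For medium mDP PAC against water the estimate was 0.21 ± 0.17, and -0.06 without that mouse. For medium against low mDP PAC it was -0.12 ± 0.17, and -0.39 without that mouse, with an unadjusted p of 0.000523 and an adjusted p of 0.671. Without medium mDP mouse 3 it was -0.04.

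Sox9, a transcription factor of stem, progenitor and Paneth cells, was measured at 7.91, 9.69, 8.03, 9.04 and 8.98 FPKM in water mice, 10.4, 10.4, 9.77, 12.3 and 9.51 in low mDP mice and 8.09, 7.56, 12.7, 12.3 and 8.80 in medium mDP mice. In the low mDP group 4 of 5 mice lay above every water mouse, whereas the medium mDP mice fell into 2 high (mice 3 and 4) and 3 within or below the water range. The log2 fold change was 0.21 ± 0.13 (SE, adjusted p = 0.976, edgeR) for low and 0.08 ± 0.13 for medium mDP PAC against water, and the latter was -0.02 without medium mDP mouse 4.

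The exact permutation tests, which use only the 2 groups compared, counted more genes than the fit for low mDP PAC. On log2(FPKM + 0.1), 4 of 10 genes had p under 0.05 for low mDP PAC against water, beside 4.74% of all genes tested: Axin2 and Sox9 at 0.0159 each, Rnf43 at 0.0317 and Znrf3 at 0.0476. On log2 CPM, which corrects for the composition of the libraries, 2 of 10 did, beside 4.32%: Axin2 at 0.0238 and Sox9 at 0.0397. For medium mDP PAC against water, 2 of 10 (Rspo3 and Smoc2) had p under 0.05 on FPKM, beside 17.5% of all genes, and 1 of 10 (Rspo3) on log2 CPM, beside 13.6%. These p-values are not adjusted for the 10 genes and 3 comparisons. For medium against low mDP PAC, 0 of 10 did on either scale, beside 4.5% on FPKM and 3.8% on log2 CPM. FPKM values carry no TMM factor, and the factors averaged 0.966 in water, 1.00 in low mDP and 1.03 in medium mDP mice.

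**Figure D2:**
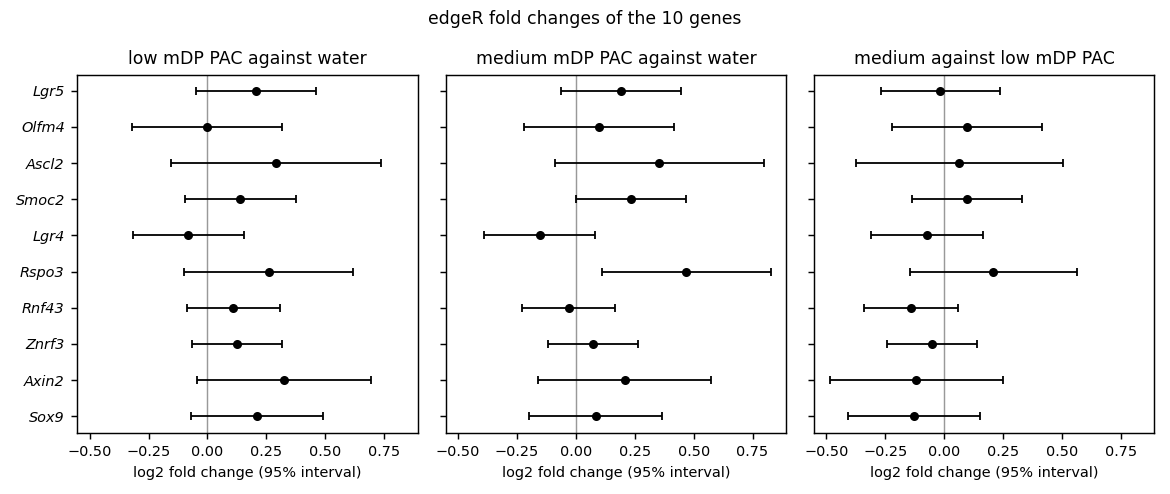
Log2 fold change (x axis) of each of the 10 genes (y axis) in the 3 comparisons, from edgeR, with points at the estimate and bars over the 95% interval. The intervals cross 0 in all panels except for Rspo3 and Smoc2 in medium mDP PAC against water, which had adjusted p-values of 0.26 and 0.336.

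The fractions themselves, which differ in mean chain length, were compared at the same dose and times. For medium against low mDP PAC the 10 log2 fold changes ran from -0.14 (Rnf43) to 0.21 (Rspo3), with a median of -0.03. Of these estimates 4 lay above and 6 below zero, beside 51.4% above zero and a median of 0.00 over all genes tested. The median of the 10 was -0.09 without medium mDP mouse 4 and 0.00 without low mDP mouse 2. Without low mDP mouse 4 the Rspo3 estimate was 0.11 and the Rnf43 estimate -0.09. The 95% intervals of the 10 folds lay between 0.714 (lower bound of Axin2) and 1.48 (upper bound of Rspo3). The data leave folds within each gene's own, narrower interval possible. Against water the corresponding outermost bounds were 0.801 (Olfm4) and 1.66 (Ascl2) for low mDP PAC and 0.763 (Lgr4) and 1.77 (Rspo3) for medium mDP PAC. Whether a PAC effect on any of these genes differed between the fractions is the medium against low comparison, in which no gene of the set passed.

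By level, Olfm4 averaged 232 FPKM over the 15 mice, Lgr4 34.5, Axin2 25.1, Smoc2 22.5, Sox9 9.70, Lgr5 9.34, Rnf43 6.92, Ascl2 3.59, Rspo3 2.84 and Znrf3 2.73. Olfm4 lay 6.73 times above Lgr4 in mean FPKM, and these ranges did not overlap, nor did those of Smoc2 and Sox9 or of Rnf43 and Ascl2. Lgr5 exceeded Rnf43 in 15 of 15 mice although the ranges of these genes met. The neighbours Axin2 and Smoc2, Sox9 and Lgr5, and Rspo3 and Znrf3 changed places between mice, with the former higher in 9, 8 and 9 of 15 mice, and Lgr4 exceeded Axin2 in 13 and Ascl2 exceeded Rspo3 in 12.

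**Figure D3:**
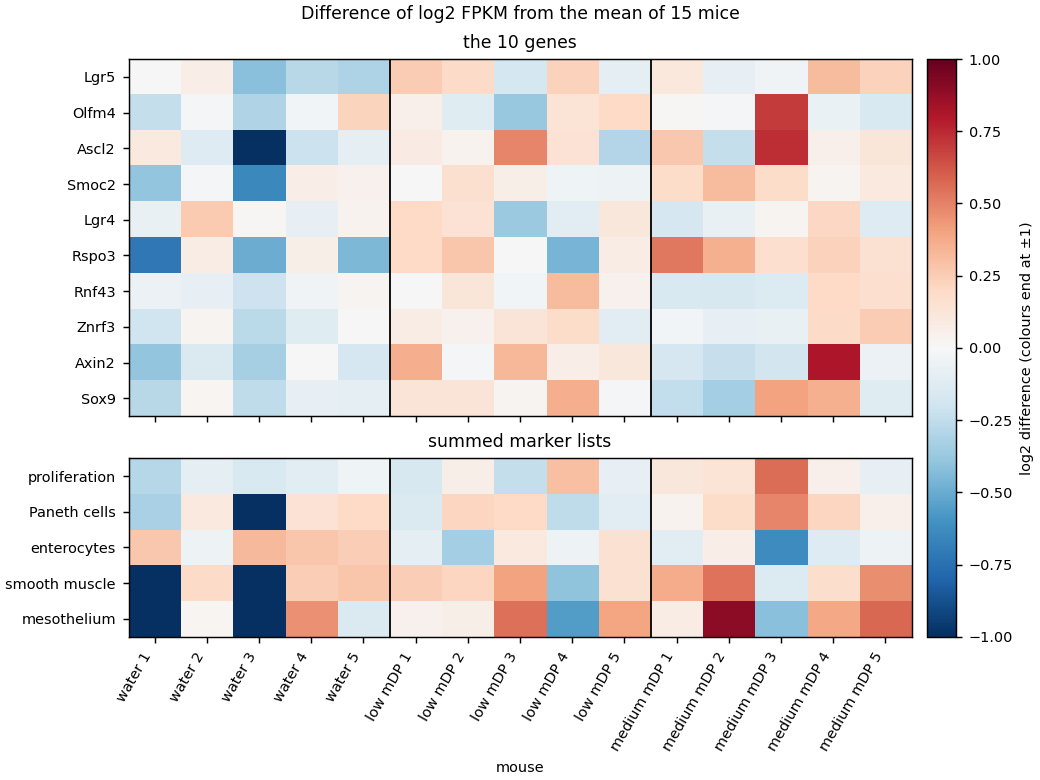
Difference of log2 FPKM from the mean of 15 mice (colour) for the 10 genes (upper panel) and for the summed FPKM of 5 marker lists (lower panel), with 1 column per mouse and black lines between groups. In the upper panel the darkest red cells are Olfm4 and Ascl2 in medium mDP mouse 3 and Axin2 in medium mDP mouse 4. In the lower panel the mesothelium list is dark red in medium mDP mouse 2. Water mouse 3 is blue in most genes and in the Paneth cell, smooth muscle and mesothelium lists. Water mouse 1 is blue in the smooth muscle and mesothelium lists.

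The genes did not follow each other closely from mouse to mouse. Water mouse 3 was the lowest of its group in 6 genes (Lgr5, Olfm4, Ascl2, Smoc2, Rnf43 and Znrf3) and medium mDP mouse 2 in 6 (Lgr5, Ascl2, Axin2, Rnf43, Znrf3 and Sox9). Water mouse 2 was the highest of its group in 5 genes (Lgr5, Znrf3, Sox9, Rspo3 and Lgr4), medium mDP mouse 4 in Lgr5, Axin2, Rnf43 and Lgr4, and medium mDP mouse 3 in Olfm4, Ascl2 and Sox9. Over 45 pairs of the 10 genes, with group means subtracted from log2 CPM (n = 15 mice), Pearson's r ran from -0.38 to 0.71 with a median of 0.21, 30 pairs were positive, and 0 pairs had an adjusted p under 0.05. The highest was Rnf43 with Znrf3, at r = 0.71 (permutation p = 0.023, 0.517 after adjustment), with a Spearman's rho of 0.64 (permutation p = 0.0452, 0.651 after adjustment). Leaving out the 2 mice most distant from the middle value of Rnf43 gave r = 0.61.

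Of 60 relations between a gene of the set and a summed marker list, 0 had an adjusted p under 0.05. The highest was Smoc2 with the Paneth cell list, at r = 0.87 (permutation p = 0.00249, adjusted p = 0.14) and rho = 0.75 (permutation p = 0.00444, adjusted p = 0.133), and r was 0.70 once the 2 mice most distant from the middle value of the list were left out. Smoc2 with the smooth muscle list gave r = 0.83 (permutation p = 0.00466, adjusted p = 0.14), rho = 0.84 (permutation p = 0.00276, adjusted p = 0.133) and r = 0.69 without 2 mice. The lowest was Olfm4 with the enterocyte list, at r = -0.81 (permutation p = 0.0201, adjusted p = 0.201), rho = -0.63 (permutation p = 0.0356) and r = -0.50 without 2 mice.

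Among tested genes outside the set with a mean of at least 1 FPKM, those whose log2 CPM with group means subtracted was most like Axin2 over the 15 mice were Areg (r = 0.90), an epidermal growth factor receptor ligand, Hs3st1 (0.86), Hic2 (0.86), Kcnk5 (0.85) and Fhdc1 (0.81). Among those most like Olfm4 were Rida (0.89), Nsa2 (0.88), Malsu1 (0.88) and Tfam (0.86), the mitochondrial DNA packaging factor. Those most like Lgr5 were Hspa4l (0.85), Unc13b (0.82), Pcdh18 (0.80), Cyp4f40 (0.80) and Zc3hav1l (0.79). These are descriptions over the same 15 libraries, and in Axin2 and Olfm4 a single mouse sets much of the range.

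**Figure D4:**
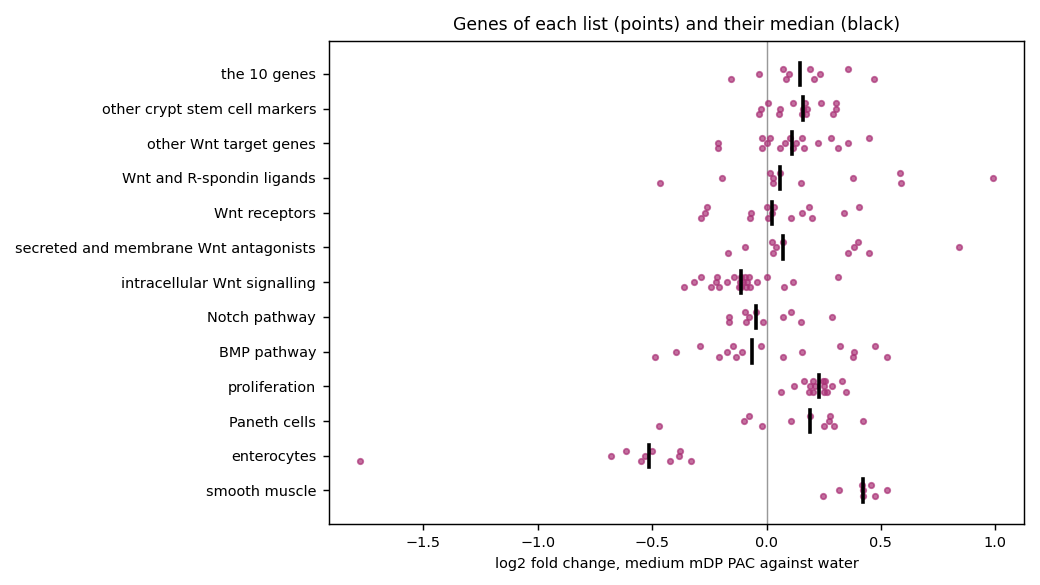
Log2 fold change in medium mDP PAC against water (x axis) of the tested genes of each list (y axis), 1 point per gene, with the list's median as a black bar. The 10 genes have a median of 0.14, intracellular Wnt signalling genes -0.11, proliferation genes 0.23 and enterocyte genes -0.52, and no gene shown passed the adjusted threshold.

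The rest of the pathway was read from lists, in which no gene passed at an adjusted p under 0.05 in any comparison. For all lists, counted means an unadjusted p under 0.05 for medium mDP PAC against water, as for 14.8% of all genes tested, 4.37% with higher and 10.4% with lower estimates. Of 15 other crypt stem cell markers tested, 4 were counted, all with higher estimates, among them Igfbp4 (27.2 against 36.0 FPKM in water and medium mDP mice, log2 fold change 0.30, adjusted p = 0.222), Cdca7 (18.2 against 24.0, 0.30, adjusted p = 0.237) and the chloride cotransporter Slc12a2 (55.3 against 69.6, 0.24, adjusted p = 0.329). The most abundant of that list, Clca3b, had 112 against 117 FPKM and a log2 fold change of -0.03. Of 18 other Wnt targets tested, 1 was counted, the receptor tyrosine kinase gene Met, with a lower estimate of -0.21, while Ccnd1 (0.08), Cdx1 (0.17) and Mmp7 (-0.02) were not.

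Of 24 Wnt and R-spondin ligand genes, which here include the Wnt carrier Wls, 11 were tested and 2 counted, both with higher estimates, as were 4.37% of all genes. Wls, which takes Wnt proteins to the cell surface, averaged 20.4 FPKM in water, 26.1 in low mDP and 27.7 in medium mDP mice, with log2 fold changes of 0.32 (adjusted p = 0.976, edgeR) and 0.38 (adjusted p = 0.193, edgeR) against water. Wnt9a averaged 0.47 and 0.754 FPKM in water and medium mDP mice (log2 fold change 0.59, adjusted p = 0.266), and the stromal ligands Wnt2b and Wnt5a had estimates of 0.03 and 0.01. The related R-spondins Rspo1 and Rspo2, chosen for mention after their values were seen because they share the receptors of Rspo3, averaged 0.558 and 0.21 FPKM in water and 1.17 and 0.344 in medium mDP mice, with log2 fold changes of 0.99 ± 0.58 (SE, adjusted p = 0.421, edgeR) and 0.58 ± 0.39 (adjusted p = 0.477, edgeR). By its own test, which gives no p-value, and by qPCR, the study reports Rspo1 as upregulated by medium mDP PAC. In low mDP mice Rspo1 averaged 1.06 FPKM, a log2 fold change of 0.89 ± 0.59 against water (adjusted p = 0.976, edgeR). The mesothelial marker Msln had log2 fold changes of 0.88 and 1.16 for low and medium mDP PAC against water, and its part in the Rspo1 level was not tested.

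Of 15 Wnt receptors tested, 1 was counted with a higher estimate, Fzd2 (0.40, adjusted p = 0.329), and 3 with lower ones, among them the abundant crypt receptor Fzd5 (37.7 against 33.1 FPKM, -0.29, adjusted p = 0.214) and the coreceptor Lrp5 (-0.26, adjusted p = 0.334). Of 11 secreted and membrane antagonists tested, 1 was counted, the BMP and Wnt inhibitor Sostdc1 (0.84, adjusted p = 0.301), while Dkk3, Sfrp1 and Kremen1 had estimates of 0.03, -0.17 and 0.04. Of 24 intracellular Wnt genes, 6 were counted, all with lower estimates, as were 10.4% of all genes, including the destruction complex genes Apc (-0.21, adjusted p = 0.277) and Gsk3b (-0.24, adjusted p = 0.26) and the corepressor Tle1 (-0.29, adjusted p = 0.267). Beta-catenin itself, Ctnnb1, had 253 and 249 FPKM in water and medium mDP mice and an estimate of -0.12 (adjusted p = 0.576).

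Of 11 Notch pathway genes tested 0 were counted, and Notch1, Hes1, Atoh1 and Rbpj had estimates from -0.16 to 0.11. Of 16 BMP pathway genes 3 were counted with higher and 2 with lower estimates, and Bmp2, a ligand of differentiated villus cells, had 16.7 and 13.6 FPKM (-0.40, adjusted p = 0.215). Of 13 crypt-side stromal and lymphatic genes 2 were counted higher and 1 lower, the latter the subepithelial telocyte factor Foxl1 (0.88 against 0.584 FPKM, -0.69, adjusted p = 0.183).

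Cell type lists were read in the same way. All 16 proliferation genes had higher estimates for medium mDP PAC against water, with a median of 0.23, and 3 were counted, among them Mcm7 (0.25, adjusted p = 0.314) and Cdk1 (0.35, adjusted p = 0.296). All 10 enterocyte genes had lower estimates, with a median of -0.52, and 8 were counted, among them Apoa1 (-0.50, adjusted p = 0.195) and Krt20 (-0.42, adjusted p = 0.193). Their summed levels ran from 36253 to 44086 CPM in water, 28904 to 36152 in low mDP and 15741 to 32941 in medium mDP mice, and in FPKM the sums of the groups overlapped, while the summed level of the 10 genes ran from 959 to 1161, 940 to 1179 and 993 to 1417 CPM. Of 11 Paneth cell genes 1 was counted, Defa30 (0.42, adjusted p = 0.333), whose reads may be shared with near-identical alpha-defensin copies. Of 10 B cell, 8 smooth muscle and 6 mesothelium genes 0 were counted, with medians of 0.13, 0.42 and 0.82. For low mDP PAC against water, 10 of 10 B cell genes had lower estimates (median -1.20), 10 of 10 enterocyte genes lower (-0.32), 8 of 8 smooth muscle genes higher (0.31) and 6 of 6 mesothelium genes higher (0.56). For medium against low mDP PAC, 10 of 10 B cell genes had higher estimates (median 1.36), beside 51.4% of all genes tested. The B cell sums differed widely within each group. They were 184, 317 and 339 CPM in water mice 1, 3 and 5. They were 150 and 171 CPM in low mDP mice 3 and 5, and 476 and 435 in medium mDP mice 1 and 3. The remaining mice lay between 11 and 17 CPM. The group medians were 184 CPM in water, 17.1 in low and 15.1 in medium mDP mice. The covariate fit held only the B cell and smooth muscle sums. Beyond it and the correlations with summed lists, the part of these cell type differences in the 10 genes was not tested.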

How the data were processed

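Ileal RNA of 15 mice was extracted, sequenced as paired-end reads and mapped to mm10 by the authors, whose methods name Bowtie2, while the submitters' processing notes name HISAT. They deposited, per mouse and gene, expected counts (estimated counts, not normalized) and FPKM, the latter divided by gene length and library total. The counting program is not given in the sources used here. Here, expected counts were rounded, filtered with filterByExpr, scaled with TMM and tested in edgeR 4.0.16 (R 4.3.3), with DESeq2 1.42.0 and limma 3.58.1 as alternatives. The study's own test gives no p-value. Procedures were tested on simulated data. Permutation tests of single genes used all 252 splits, and correlations 1e+05 permutations within groups. The 10 genes and the lists were chosen with earlier results of these data known. Named from each list were the 3 genes of highest mean FPKM, the gene with the smallest p in each comparison and any gene that passed (not all are described), and Rspo1 and Rspo2. The libraries of a group correlated at r of 0.955 to 0.988 and none were identical. Sequences and positions came from RefSeq tables of GRCm38.p6. One gene named by the rule for likeness to Olfm4 is not reported here.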

Additional observations from a re-analysis of the deposited data

Results flagged for a closer look

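Of 30 sets of 5 mice (10 genes in 3 groups), 2 held a mouse that stood apart from the rest of its group by Dixon's test at its 95% critical value of 0.71, which chance reaches in about 1 of 20 sets. Olfm4 was at 371.42 FPKM in medium mDP mouse 3, against 205.59 to 230.09 in the other medium mDP mice. Axin2 was at 42.91 FPKM in medium mDP mouse 4, against 20.88 to 23.55 in the other medium mDP mice. Medium mDP mouse 3 had the lowest summed enterocyte markers (15741 CPM) of the 15 mice, and medium mDP mouse 4, at 30870 CPM, lay inside the range of its group. The part of these values in the gene levels was not tested beyond the correlations with the enterocyte list.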

How the results depend on the processing

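In each comparison 0 of the 10 genes passed under all 25 alternatives, and 8 to 10, 6 to 9 and 3 to 5 of the 10 had estimates above zero in low mDP PAC and in medium mDP PAC, each against water, and in the medium group against the low. Counts over all genes moved more. DESeq2 called 2 for low mDP PAC and 167 for medium mDP PAC against water. For medium mDP PAC against water, limma called 9 on log2(FPKM + 0.1) and 9 on log2(FPKM + 1), and the fit of only the 2 groups called 4. Leaving out 1 mouse at a time gave 0 to 1 for low mDP PAC against water (1 without low mDP mouse 2), 2 to 11 for medium mDP PAC against water (11 without medium mDP mouse 2 and 4 without water mouse 2) and 0 between the PAC groups. The causes were not tested. With water mouse 3 and medium mDP mouse 3 both left out, an alternative chosen after seeing the data, the counts over all genes were 0, 2 and 0. The permutation test on log2 CPM was also chosen after seeing the data. The labels number the mice alike in each group, but deviations of same-numbered mice correlated at r from -0.32 to 0.44, so the numbers did not pair them. With the replicate block the counts over all genes were 0, 2 and 0, and 0 of the 10 genes passed in any comparison. Depth limits Ascl2 (45 to 153 counts) and Rspo3 (69 to 158 counts) most.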
